A study of Homo sapiens with 24 samples.

Results

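Tenascins and the other matricellular proteins are secreted into the extracellular matrix, where they change how cells adhere and respond to growth factors more than they build the scaffold itself. Tenascin C is abundant in the developing brain and after injury, whereas tenascin R is a neuronal and oligodendrocyte matrix protein of the mature brain. The thrombospondins and SPARC family proteins bind integrins, CD36, CD47 and collagens and are known to act on synapse formation. The genes described here are TNC, TNR and TNXB (tenascins), THBS1 and THBS2 (thrombospondins), SPARC and SPARCL1 (SPARC and its relative hevin), EGFL6 (a secreted protein with EGF repeats), ECM2 (a leucine-rich repeat matrix protein) and FN1 (fibronectin, to which several of the others bind). They were chosen by name, and a probe belonged to them if its accession is a RefSeq transcript of one of these genes. In all, 10 of 21236 genes tested and 17 of 50599 probes on the array were members, and the filter on dim spots kept all 17 probes. TNC, EGFL6, ECM2 and THBS2 were among the genes with known differences between rotenone and DMSO in these data, so that all values of rotenone against DMSO below are descriptions without a test.

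The arrays measured total RNA of LUHMES cells, an immortalized human mesencephalic line that stops dividing under tetracycline and becomes dopaminergic neurons with cAMP and GDNF, grown as 3D aggregates on a shaker. All aggregates were differentiated in the same way, and rotenone, an inhibitor of mitochondrial complex I, was added from a DMSO stock on day 7. There were 4 treatments: the DMSO control, rotenone at 50 nM given for either 12 or 24 h, and rotenone at 100 nM given for 24 h. Aggregates of each were taken when the exposure ended, called day 8, or once they had recovered in rotenone-free medium for 7 days, called day 15, which made 8 groups of 3 arrays. DMSO was given at the amount that 100 nM rotenone carries, the labels give DMSO no exposure time, and replicates share 1 cell line, so that p values measure only the spread between these samples. No DMSO control is labelled as 12 h, so that in the 12 h comparisons exposure length cannot be told apart from rotenone.

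Of the 8 neuronal markers, 7 were well above background on all 24 arrays, and SLC18A2 was so on 3 arrays. SOX2 of progenitors and COL3A1 of fibroblasts were well above background on 0 arrays, but other markers of these lists were detected. NES, VIM and PAX6 of progenitors and PDGFRB of mural cells were well above background on 24 arrays, and COL1A2 on 20. Of further lists, MBP and MOG were so on 24 arrays, VWF and PTPRC on 23 and CDH5 on 20, against 1 for GFAP and PECAM1. TH, which makes the precursor of dopamine, was lower on day 15 than on day 8 in DMSO by 2.94 on the log2 scale (limma adjusted p = 2.1e-08), and OLIG2, a transcription factor of the oligodendrocyte lineage and of progenitors, fell by 3.995 (limma adjusted p = 1.07e-11), so that the days differed in more than the members. Other cell types were checked by the summed linear signal of their markers: the 5 astrocyte markers, of which GFAP and AQP4 were well above background on 0 DMSO arrays of day 8, summed to 88.9 to 123 in DMSO and 85.6 to 96.0 after 100 nM on day 8, and the 7 fibroblast and mural markers to 217 to 253 and 215 to 258. After 50 nM for 24 h on day 8 the fibroblast and mural markers summed to 253 to 386, with a median difference from DMSO of 0.37. The 6 progenitor and cycling markers summed to 16842 to 20982 in DMSO and 23764 to 27070 after 100 nM on day 8. Their members went both ways, with differences of 0.42 for VIM and 0.59 for NES against -0.44 for PAX6, -0.47 for MKI67 and -0.75 for TOP2A, a median of -0.20, and 0 of them were called. The part of these cell types in the results was not tested. Slide 1, a repeated slide, holds replicate 1 of every group and its arrays had more spots marked well above background (67.3% to 82.4%) than those of slides 2 and 3 (50.9% to 62.4%). Replicate 3 of 100 nM on day 15 stood apart from its group, with a residual SD of 0.446 over all genes against 0.199 to 0.306 on the other arrays. The array labelled replicate 1 of DMSO on day 15 has a scan name that gives 12 h and no agent, where the other DMSO arrays are named DMSO and 24 h, so that its group rests on its label. Without it the numbers of members called were the same, 0 in each day 15 comparison with DMSO and 3 between the days in DMSO. A group had the same position on each slide, and its effect cannot be told apart from that of the position.

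All values below are log2 of the quantile normalized and batch-corrected signal, averaged over the probes of a gene. Differences are between group means, with the standard error (SE) of the limma fit. A gene was called when its fold change was over 1.5 and its Benjamini-Hochberg adjusted p under 0.05 over all genes. Since probes differ in brightness, signal is not compared between genes. In bulk RNA, fewer cells that express a gene and less RNA per cell cannot be told apart.

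On day 8, TNC, EGFL6 and THBS2 were higher and ECM2 was lower after 100 nM rotenone for 24 h than in DMSO. These were 4 called members of 10, where 3.48% of all genes were called. By the mean of their probes, TNXB, TNR, SPARC and THBS1 differed by less than 0.19 on the log2 scale, although 1 of the 5 TNXB probes was called higher over probes. By day 15 not a single member was called in any of the 3 comparisons with DMSO, in which 0% of all genes were called. From day 8 to day 15 TNC and ECM2 fell in DMSO and after both exposures to 50 nM, and THBS2 and, by the mean of its probes, TNXB fell after both exposures to 50 nM.

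**Figure D1:**
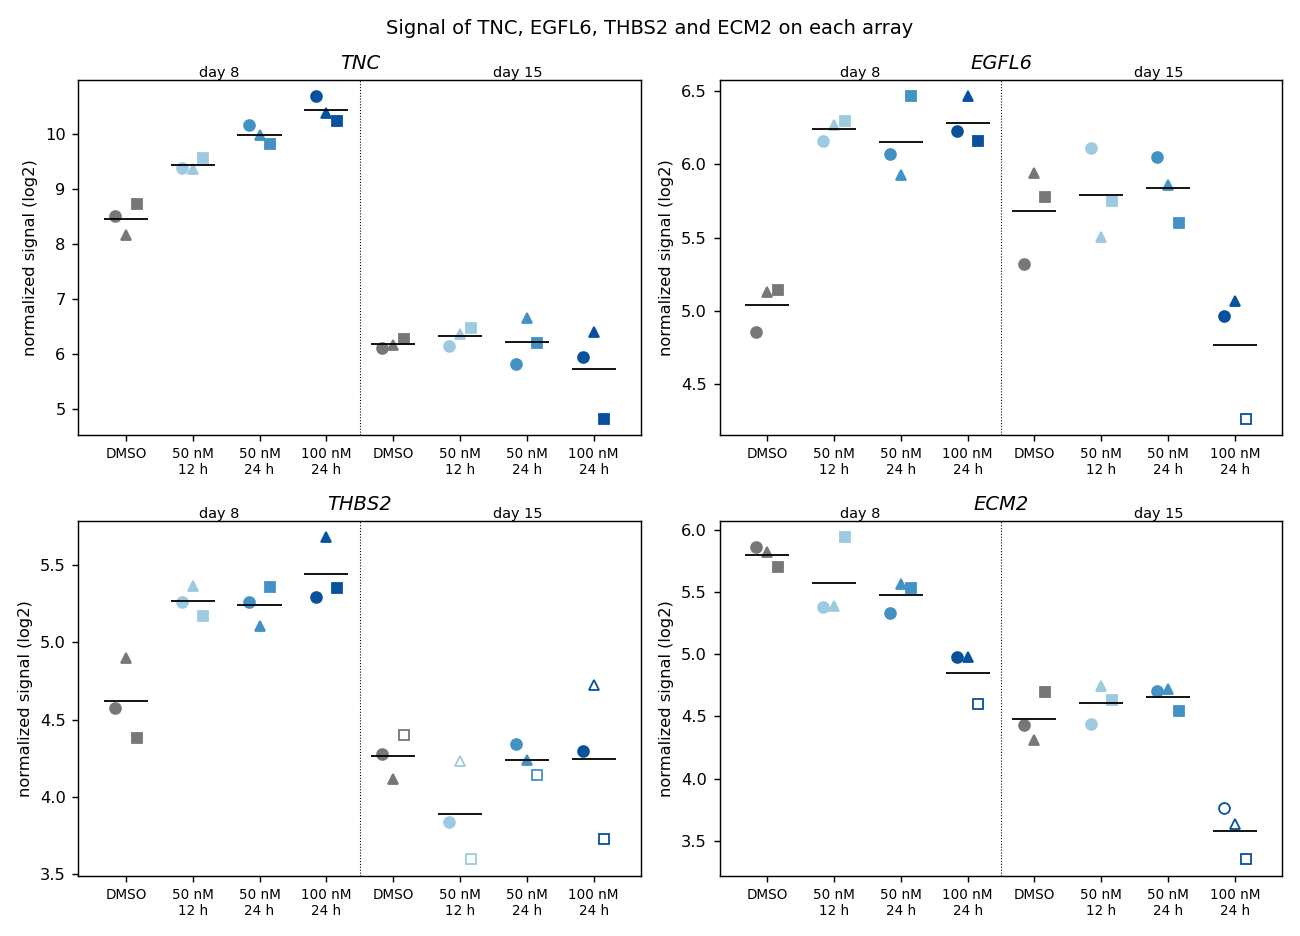
Normalized log2 signal (y axis) of TNC, EGFL6, THBS2 and ECM2 on each of the 24 arrays by group (x axis); circles, triangles and squares are replicates 1, 2 and 3, horizontal bars are group means, and open symbols mark arrays on which no probe of the gene was well above background. TNC means climb from 8.46 in DMSO to 10.43 with 100 nM on day 8 and lie between 5.73 and 6.33 on day 15.

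TNC encodes tenascin C, a hexameric glycoprotein that binds integrins and syndecans and is read here by 1 probe (A_23_P157865, NM_002160), well above background on all 24 arrays. On day 8 its log2 signal in DMSO was 8.50, 8.16 and 8.72 for replicates 1, 2 and 3. After 50 nM for 12 h it was 9.38, 9.37 and 9.56. After 50 nM for 24 h it was 10.16, 9.97 and 9.81, and after 100 nM for 24 h it was 10.68, 10.38 and 10.23. These 4 groups did not overlap, so that every rise in dose or time on day 8 came with a higher signal on every array. The step from 12 h to 24 h of 50 nM (0.55) was not called, and 17% of all genes showed no overlap there. The step from 50 nM to 100 nM was not tested. The differences from DMSO were 0.97 (SE 0.28, n = 3 and 3) after 50 nM for 12 h, 1.52 after 50 nM for 24 h and 1.97 after 100 nM, or 1.96-fold, 2.87-fold and 3.92-fold. Within slides, the difference of 100 nM lay between 1.46 and 2.25 on the 3 slides. With 50 nM for 12 h the call was lost in the fit with the replicate number as a block (difference 0.98) and when any of the 6 arrays was left out (0.82 to 1.11). All 3 TNC calls were lost with slides 2 and 3 alone, where the differences were 1.04, 1.46 and 1.86.

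On day 15 the TNC signal was 6.12, 6.16 and 6.27 in DMSO, 6.15, 6.36 and 6.47 after 50 nM for 12 h, 5.81, 6.65 and 6.20 after 50 nM for 24 h and 5.95, 6.40 and 4.83 after 100 nM. All 4 groups overlapped, and every day 15 array was below every day 8 array. The difference of 100 nM from DMSO was -0.46 (SE 0.28), and -0.01 without replicate 3, whose 4.83 was the lowest value of TNC on any array. The next groups in the order of means, 6.33, 6.22, 6.18 and 5.73, differed by less than their spread. The promoter of TNC and those of the other members with a large difference on day 8 are shown because EGFL6 and THBS2 were higher together with TNC, and ECM2 was lower. They are the 250 bases before the start of the gene, from RefSeq on GRCh38.p14, 5' to 3' on the strand of the gene, with the motifs found by letters in capitals.
TNC, chr9:115118158-115118407, minus strand: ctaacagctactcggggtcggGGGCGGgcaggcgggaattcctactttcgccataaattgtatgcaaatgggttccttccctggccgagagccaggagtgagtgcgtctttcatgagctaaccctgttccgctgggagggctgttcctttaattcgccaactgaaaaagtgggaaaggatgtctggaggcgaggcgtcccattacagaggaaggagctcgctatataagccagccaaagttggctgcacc
EGFL6, chrX:13569351-13569600, plus strand: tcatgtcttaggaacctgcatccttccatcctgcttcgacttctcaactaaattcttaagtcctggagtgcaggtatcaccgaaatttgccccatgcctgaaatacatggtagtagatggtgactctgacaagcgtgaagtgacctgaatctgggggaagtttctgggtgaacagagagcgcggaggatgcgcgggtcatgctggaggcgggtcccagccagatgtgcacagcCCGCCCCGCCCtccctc
THBS2, chr6:169253847-169254096, minus strand: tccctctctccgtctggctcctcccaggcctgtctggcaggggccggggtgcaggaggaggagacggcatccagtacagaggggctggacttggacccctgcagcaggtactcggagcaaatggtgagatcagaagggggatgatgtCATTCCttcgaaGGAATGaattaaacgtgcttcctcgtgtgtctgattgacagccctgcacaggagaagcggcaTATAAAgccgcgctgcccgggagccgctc
ECM2, chr9:92535991-92536240, minus strand: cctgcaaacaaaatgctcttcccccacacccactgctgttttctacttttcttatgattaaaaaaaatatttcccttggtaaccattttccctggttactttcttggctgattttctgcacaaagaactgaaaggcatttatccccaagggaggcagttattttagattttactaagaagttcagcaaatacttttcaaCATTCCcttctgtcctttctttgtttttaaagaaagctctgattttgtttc
The motifs searched on both strands were TGANTCA of AP-1, GGGCGG of SP1, TATAAA of the core promoter, GGAATG of TEAD and the CArG box of SRF. Overlapping matches were merged in the capitals. GGGCGG occurred in the windows of TNC and EGFL6, and 42.6% of all 35116 promoters of this length hold it. It also occurred in those of FN1 and THBS1, which had no call against DMSO. THBS2 holds TATAAA, starting 29 bases before the start of the gene (10.7% of all promoters), and GGAATG, which THBS2 has in 2 places and ECM2 in 1 (11.9% of all). GGAATG also occurred in the windows of SPARC and THBS1, and TATAAA in that of SPARCL1, genes with no call against DMSO. A window of TNXB held GGAATG too. TGANTCA was found in 0 of the windows of the 9 members with a promoter in the table (6.57% of all), and the CArG box in SPARCL1 alone (1.16% of all). A match is a run of letters, and no match says nothing of the factor.

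EGFL6 encodes a secreted EGF-repeat protein of the basement membrane that can bind integrins, read by 1 probe (A_33_P3290709, NM_001167890) that was well above background on 23 of 24 arrays. On day 8 its signal was 4.85, 5.12 and 5.14 in DMSO, 6.16, 6.27 and 6.30 after 50 nM for 12 h, 6.07, 5.93 and 6.47 after 50 nM for 24 h and 6.23, 6.47 and 6.16 after 100 nM. Every rotenone array was above every DMSO array, whereas the 3 rotenone groups overlapped. The differences from DMSO were 1.20 (SE 0.21), 1.12 and 1.25, or 2.30-fold, 2.17-fold and 2.37-fold. EGFL6 showed no order with dose or time beyond the spread of its arrays. A normexp offset of 50 lowered these differences to 0.60, 0.55 and 0.63, of which 0.55 is under 1.5-fold and was not called, and the array software's processed signal raised them to 2.04, 1.81 and 2.14.

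On day 15 the EGFL6 signal after 100 nM was 4.96, 5.06 and 4.26, against 5.32, 5.94 and 5.78 in DMSO. The 100 nM arrays did not overlap with DMSO, and replicate 3 was the only array of the 24 on which EGFL6 was not well above background. The difference was -0.92 (SE 0.21), -0.67 without replicate 3 and -1.097 without day 15 DMSO replicate 1. Under alternatives the same difference shrank to -0.55 (processed signal), -0.51 (scaling to the 75th percentile) and -0.39 (an offset of 50). After 50 nM the day 15 signal was 6.11, 5.50 and 5.75 for 12 h and 6.05, 5.86 and 5.60 for 24 h, in the range of DMSO but for 1 array above it in each group. EGFL6 was thus higher with 100 nM on day 8 and lower on day 15, a difference of -2.16 between the days that was not tested.

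THBS2 encodes thrombospondin 2, a secreted protein known for limiting vessel growth and, from glia, for promoting synapses. Its 2 probes (both NM_003247) differed in brightness. The dim probe (A_33_P3365735) was well above background on 0 of 24 arrays, and the bright probe (A_33_P3227375) on 18. The gene mean on day 8 was 4.57, 4.90 and 4.38 in DMSO, 5.26, 5.36 and 5.17 after 50 nM for 12 h, 5.26, 5.11 and 5.35 after 50 nM for 24 h and 5.30, 5.68 and 5.35 after 100 nM. The rotenone groups overlapped with each other and not with DMSO. The differences from DMSO were 0.65 (SE 0.20), 0.62 and 0.83 (1.77-fold), of which the one with 100 nM was called. It was not called without DMSO replicate 3 (0.71) or without 100 nM replicate 2 (0.71). For the bright probe alone the day 8 means were 5.41 in DMSO and 6.34, 6.57 and 6.55 after rotenone, differences of 0.93, 1.15 and 1.13 that were all called over probes. On day 15 the gene means lay between 3.89 and 4.26 and the groups overlapped, with the bright probe well above background on 1 or 2 arrays of each group.

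ECM2 encodes a leucine-rich repeat matrix protein, and its members of the array are a bright probe (A_23_P303671, NM_001393), well above background on 20 of 24 arrays, and a dim probe (A_33_P3398386, NM_001197296), well above background on 1. On day 8 the gene mean was 5.86, 5.82 and 5.70 in DMSO, 5.38, 5.39 and 5.94 after 50 nM for 12 h, 5.33, 5.57 and 5.53 after 50 nM for 24 h and 4.98, 4.98 and 4.60 after 100 nM. The 100 nM arrays were below all others of day 8, while 50 nM for 12 h overlapped with DMSO. The differences from DMSO were -0.94 (SE 0.16), -0.32 after 50 nM for 24 h and -0.23 after 50 nM for 12 h, the largest in size with 100 nM. With a normexp offset of 50 the 100 nM difference was -0.51 and was not called, and it was -0.61 in the authors' normalized values and -1.57 with the processed signal. On the bright probe alone the 100 nM difference was -1.55 (SE 0.29) and on the dim probe -0.33 (SE 0.27).

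On day 15 the gene mean of ECM2 was 4.43, 4.31 and 4.70 in DMSO and 3.76, 3.63 and 3.35 after 100 nM, where neither probe was well above background on any array. The groups did not overlap. ECM2 was 1.47-fold lower than in DMSO when set against the lowest signal well above background on each 100 nM array or its own, whichever was higher. That fold is no lower bound, since alternatives gave smaller differences. The difference of the measured means was -0.90 (SE 0.16), -0.26 with a normexp offset of 50 and -0.47 in the authors' normalized values. It was not called, and it was called without replicate 1 of 100 nM (-0.99). After 50 nM the signal was 4.44, 4.74 and 4.64 for 12 h and 4.71, 4.72 and 4.54 for 24 h, both overlapping with DMSO. EGFL6 and ECM2 were the 2 members whose 100 nM and DMSO arrays did not overlap on day 15, as for 7.86% of all genes.

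**Figure D2:**
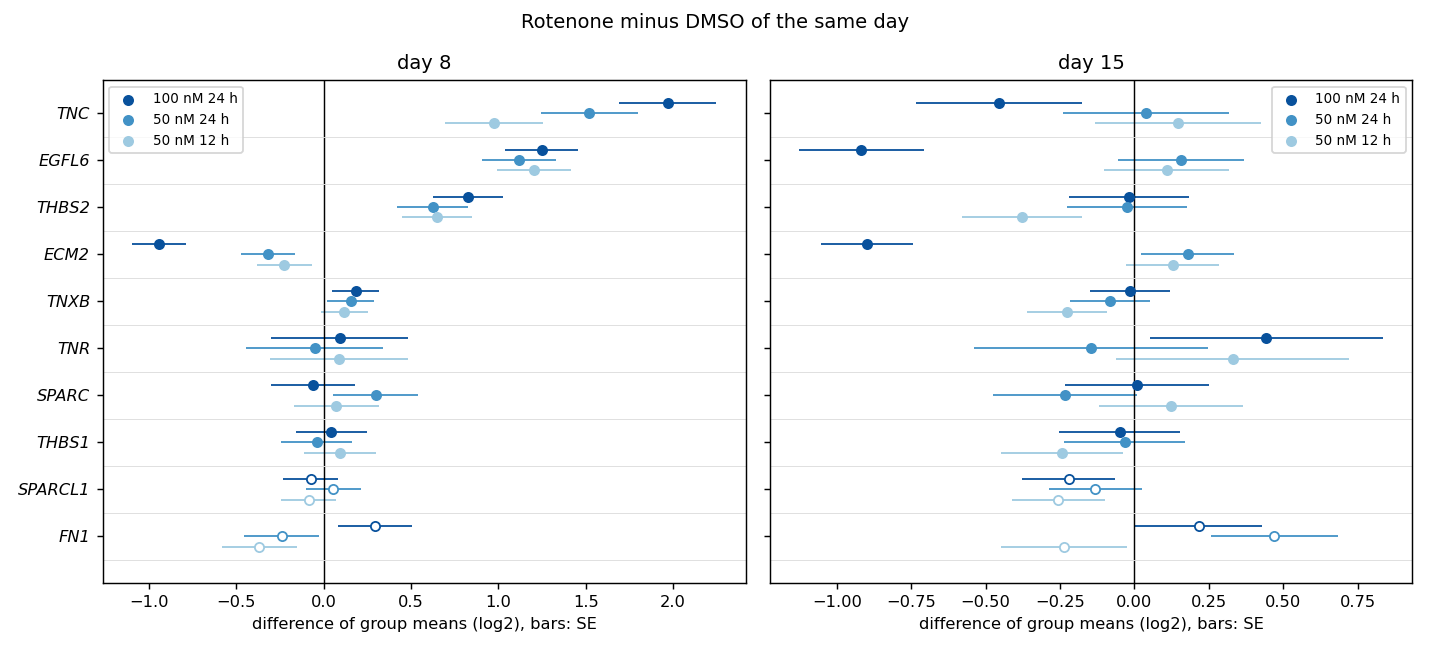
Difference of the group means of rotenone and DMSO of the same day (x axis, log2) for each of the 10 genes (y axis), with bars of 1 SE of the limma fit, for day 8 (left) and day 15 (right) and the 3 exposures (shades of blue, darkest for 100 nM); open symbols are SPARCL1 and FN1, which were well above background on 0 arrays. TNC, EGFL6 and THBS2 lie to the right of 0 on day 8 in all 3 exposures, and EGFL6 and ECM2 to the left on day 15 after 100 nM.

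The groups did not overlap for 4 of 10 members with 100 nM on day 8, as for 28.5% of all genes, for 5 with 50 nM for 24 h (28.2% of all genes) and for 3 with 50 nM for 12 h (23.6%). Called members were 2 with 50 nM for 24 h, where 2.82% of all genes were called, and 2 with 50 nM for 12 h, where 1.76% were called, TNC and EGFL6 each time. On day 15 the groups of 0 members did not overlap with DMSO after either 50 nM exposure, where this held for 7.14% (24 h) and 7.43% (12 h) of all genes. The median difference over the members with 100 nM on day 8 was 0.14, against -0.02 over all genes.

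TNXB encodes tenascin X, which binds collagen fibrils. Its 5 probes went different ways. The probe of the second transcript (A_23_P156708, NM_032470) had a signal of 8.08 ± 0.24 (SD, n = 3) in DMSO on day 8 and 8.54, 8.80 and 8.81 after 50 nM for 12 h, 50 nM for 24 h and 100 nM. These were differences from DMSO of 0.46, 0.72 and 0.74, of which the last 2 were called over probes, whereas the 4 other probes were between -0.29 and 0.44 with 100 nM and 0 of them were called. In DMSO on day 15 the NM_032470 probe was at 6.31 ± 0.19. The probe with the highest mean signal (A_33_P3364582, NM_019105) lay between 7.80 and 8.04 in all 8 groups. Another probe (A_33_P3381338, NM_019105) went from 6.52 to 5.41 from day 8 to day 15 in DMSO, and the last 2 were well above background on 9 and 11 arrays. Between the days in DMSO the NM_032470 probe fell by 1.76 (SE 0.16; limma adjusted p over all named probes = 1.22e-07) and A_33_P3381338 by 1.11 (adjusted p in the same limma fit = 0.0028), whereas the brightest probe differed by 0.20 (SE 0.20; limma adjusted p = 0.55). TNXB has a near-identical partial copy, the pseudogene TNXA, and which probes could also bind its RNA was not tested, so that these values are uncertain.

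**Figure D3:**
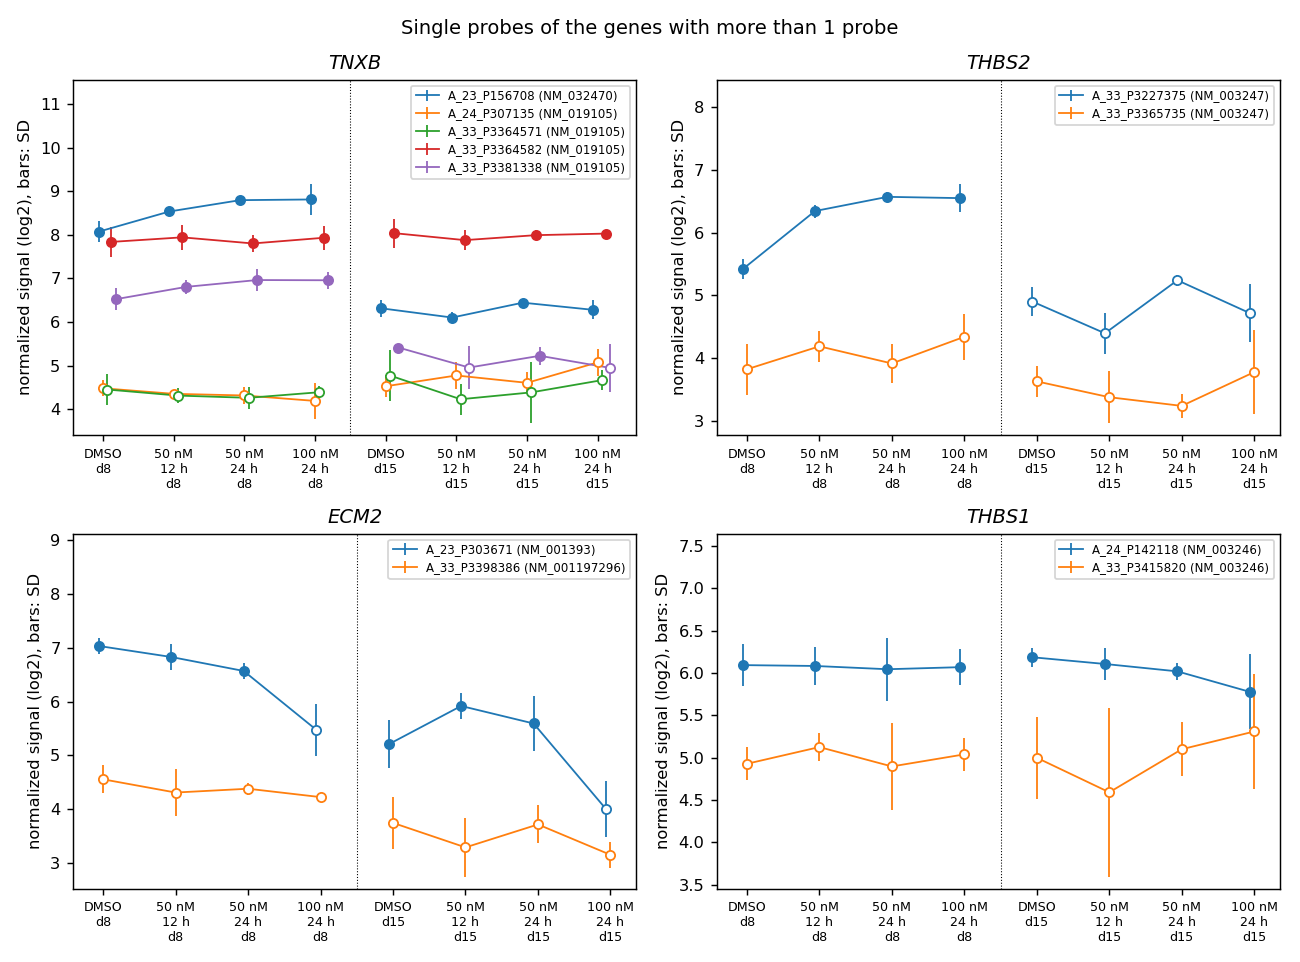
Group means of log2 signal (y axis) with bars of 1 SD of the 3 arrays, by group (x axis; d8 and d15 are the days), for each probe of TNXB, THBS2, ECM2 and THBS1; filled symbols mark groups in which the probe was well above background on all 3 arrays. The TNXB probe of NM_032470 goes from 8.08 to 6.31 between the days in DMSO, while the probe A_33_P3364582 stays between 7.80 and 8.04.

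From day 8 to day 15 in DMSO, 3 members were called, where 12.2% of all genes were: TNC and ECM2 fell and EGFL6 rose. The DMSO arrays are also the controls of the comparisons above, with results known when the genes were chosen. The p values of the day change in DMSO are therefore no evidence independent of that choice. TNC fell by 2.28 (SE 0.28; limma adjusted p = 5.55e-06; 4.85-fold), lower on day 15 on all 3 slides. Without the array labelled DMSO replicate 1 of day 15, TNC fell by 2.25 and ECM2 fell by 1.29. ECM2 fell by 1.32 (SE 0.16; limma adjusted p = 3.64e-06), and EGFL6 rose by 0.64 (SE 0.21; limma adjusted p = 0.033). The EGFL6 call was lost without any 1 of 5 of the 6 arrays (limma adjusted p of 0.054 to 0.15) and held without day 15 DMSO replicate 1. It was also lost with a normexp offset of 50 (0.29), without batch correction (0.65), with slides 2 and 3 alone (0.71) and with the 6 arrays fitted alone. TNXB fell by 0.46 with a limma adjusted p of 0.017 but at 1.38-fold was not called, and THBS2 differed by -0.35 (SE 0.20; limma adjusted p = 0.24).

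The day change after 50 nM uses no DMSO or 100 nM array, but its day 8 arrays were compared with DMSO above, with results known when the genes were chosen, and all groups share the 3 slides. Its p values are therefore no evidence independent of that choice. After 50 nM for 24 h, TNC fell from day 8 to day 15 by 3.76 (SE 0.28; limma adjusted p = 6.25e-09), and after 50 nM for 12 h it fell by 3.11 (SE 0.28; limma adjusted p = 9.19e-08). On the linear scale these were 13.6-fold and 8.62-fold. ECM2 fell by 0.82 (SE 0.16; limma adjusted p = 0.00047) and 0.96 (SE 0.16; limma adjusted p = 0.0001), and THBS2 fell by 1.002 (SE 0.20; limma adjusted p = 0.0008) and 1.38 (SE 0.20; limma adjusted p = 3.51e-05). TNXB fell by 0.70 (limma adjusted p = 0.00054) and 0.80 (limma adjusted p = 0.00015), by the mean of its 5 probes and not by its brightest probe (0.19 and -0.06). EGFL6 differed by -0.32 after 24 h of 50 nM and by -0.46 after 12 h, both short of the threshold (limma adjusted p of 0.29 and 0.12), against a rise in DMSO; the difference between these day changes was not tested. ECM2 lost both calls with a normexp offset of 50 (-0.35 and -0.40), in the authors' normalized values (-0.46 and -0.54), with the array software's processed signal (-0.74 and -0.63) and with scaling to the 75th percentile (-0.58 and -0.56). TNXB lost both under the offset (-0.52 and -0.55), the processed signal (-0.50 and -0.59), that scaling (-0.61 and -0.51) and without batch correction (-0.69 and -0.81).

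Of the 10 members, 6 were called between the days after 50 nM for 24 h, where 15.9% of all genes were, and 4 after 50 nM for 12 h, where 15.4% were. The 6 include SPARC and FN1. SPARC, a collagen-binding glycoprotein, fell by 0.75 (SE 0.24; limma adjusted p = 0.025), with 9.52, 9.34 and 9.28 on day 8 and 7.86, 8.90 and 9.16 on day 15. Replicate 1 of day 15 was the lowest SPARC value of all arrays, and without it the difference was -0.36 (limma adjusted p = 0.17). FN1 was not well above background on any of the 6 arrays, so that its call has no fold. The arrays of the days did not overlap for 5 members in DMSO (40% of all genes), 6 after 50 nM for 24 h (42.4%) and 7 after 50 nM for 12 h (41.6%). The median difference over the members was -0.07, -0.51 and -0.36 in these 3 comparisons, against -0.03, -0.01 and -0.03 over all genes.

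**Figure D4:**
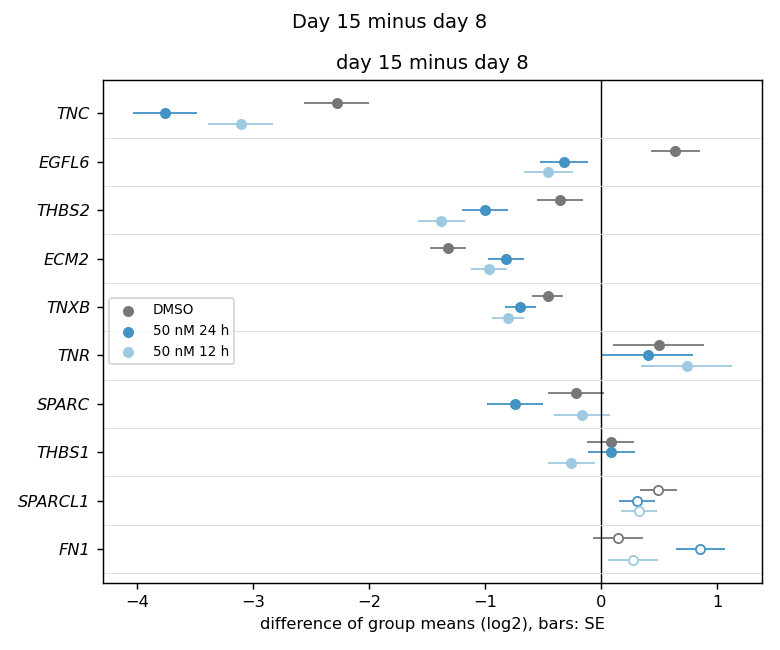
Day 15 minus day 8 (x axis, difference of group means in log2) for each gene (y axis), with bars of 1 SE of the limma fit, in DMSO (grey), after 50 nM for 24 h (mid blue) and after 50 nM for 12 h (light blue); open symbols are SPARCL1 and FN1, never well above background. TNC has the largest difference of the genes drawn in all 3, at -2.28, -3.76 and -3.11, and EGFL6 lies on the right of 0 in DMSO and on the left after 50 nM.

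The exposure time of 50 nM was compared within day 8, and the day changes after the 2 exposure times were compared by an interaction term. For 24 h against 12 h on day 8, 0 members were called, where 0.231% of all genes were; TNC was higher by 0.55 (SE 0.28; limma adjusted p = 0.51), with no overlap of its arrays, as for SPARC and 17% of all genes, and the other members differed by 0.22 or less in size. For the difference of the day change between 24 h and 12 h, 0 members were called against 0.0565% of all genes; the TNC term was -0.65 (SE 0.39; limma adjusted p = 0.63). At an unadjusted p under 0.05 there were likewise 0 members in both comparisons.

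TNR, SPARC and THBS1 were well above background on 21, 24 and 24 arrays, and by the mean of the probes of a gene their groups lay close together. Of the 2 THBS1 probes, A_24_P142118 was well above background on 24 arrays and A_33_P3415820 on 9. With 100 nM on day 15 they differed from DMSO by -0.41 and 0.31, against -0.05 for their mean. TNR, tenascin R, lay between 4.86 and 5.49 on day 8 and between 5.25 and 7.52 on day 15, where 7.52 was replicate 3 of 100 nM and the next highest was 6.57. Between the days after 50 nM for 12 h its arrays did not overlap, but the rise of means, 0.74 (SE 0.39), had a limma adjusted p of 0.18. SPARC means lay between 8.64 and 9.38 over the 8 groups. THBS1, thrombospondin 1, had means between 5.35 and 5.60, with 1 low array, replicate 2 of 50 nM for 12 h on day 15 at 4.68, and no neighbouring groups in its order differed beyond their ranges. Hevin (SPARCL1), with 10 spots, and fibronectin (FN1), whose only probe is NM_054034, were not well above background on any array.

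**Figure D5:**
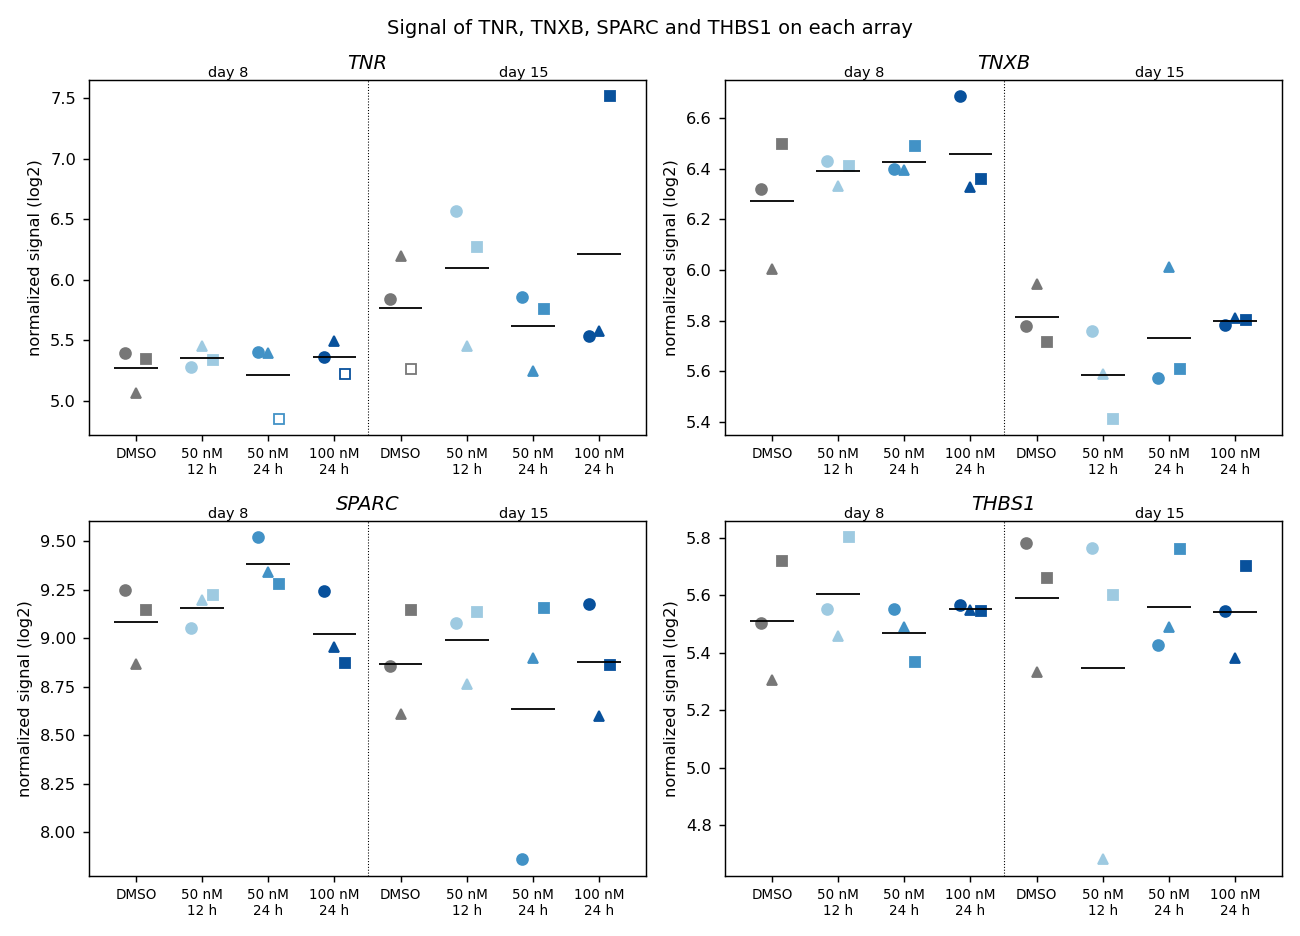
Normalized log2 signal (y axis) of TNR, TNXB, SPARC and THBS1 on each array by group (x axis); symbols, bars and open marks are as in the plot of TNC. SPARC on replicate 1 of 50 nM for 24 h on day 15 (7.86) and TNR on replicate 3 of 100 nM on day 15 (7.52) lie apart from their groups.

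Among 24 other matricellular genes, THBS4 (thrombospondin 4) was higher on day 8 by 1.099 with 100 nM (SE 0.13), by 1.13 with 50 nM for 24 h and by 1.35 with 50 nM for 12 h, and it was the only one of them called. Its mean went from 7.69 in DMSO to 8.78, 8.81 and 9.04. The median over the 24 genes was 0.12 with 100 nM, against -0.02 over all genes. Of all genes, 3.48% were called with 100 nM on day 8, 2.82% with 50 nM for 24 h and 1.76% with 50 nM for 12 h. A single called gene therefore does not set this list or those below apart. Of 8 lecticans and link proteins, the matrix partners that tenascins bind, VCAN (versican) was called and lower, with differences of -0.71 with 100 nM and -0.77 with 50 nM for 24 h. Of 14 proteases and inhibitors TIMP1, an inhibitor of matrix metalloproteinases, was called with 100 nM, higher by 0.68. Among 15 receptors and partners 0 genes were called in any comparison with DMSO. Of 16 regulators EGR1, an immediate early transcription factor, was called with both 50 nM exposures, with differences of -0.62 for 24 h and -0.79 for 12 h. These lists were chosen with earlier results known, so that these values too are descriptions.

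Between the days in DMSO, 3 of the 24 other matricellular genes rose and 3 fell, against 3 and 6 after 50 nM for 24 h and 2 and 5 after 50 nM for 12 h, where 12.2%, 15.9% and 15.4% of all genes were called in either direction. In DMSO 4 of the 15 receptors and partners, 4 of the 14 proteases and inhibitors and 3 of the 16 regulators were called. THBS4 fell by 1.67 after 50 nM for 24 h and by 1.77 after 50 nM for 12 h (limma adjusted p of 8.09e-09 and 4.63e-09). It was called higher on the same day 8 arrays above, so that these p values are no independent evidence. Between the days in DMSO it was not called. THBS3, TGFBI and SPON2 also fell after 50 nM, with differences of -1.45, -1.74 and -1.51 for 24 h and -1.66, -1.51 and -1.59 for 12 h. The values that follow are the day changes in DMSO. NPNT (nephronectin) rose by 2.23, SPOCK3 by 1.67 and SMOC1 by 0.71 (limma adjusted p of 0.00064, 1.51e-08 and 6e-05), whereas THBS3 fell by 1.87, TGFBI by 1.59 and SPON2 by 1.41 (limma adjusted p of 4.91e-10, 1.92e-08 and 2.79e-05). Of 15 receptors and partners, CD36, a receptor of thrombospondins 1 and 2, rose by 2.23, CNTN1 (contactin 1, a neuronal partner of tenascin R) by 1.20 and SDC1 by 0.85, whereas CD47, another thrombospondin receptor, fell by 0.95 (limma adjusted p of 3.38e-06, 7.92e-05, 4.8e-06 and 2.14e-06). Of 14 proteases and inhibitors MMP9 rose by 1.22, and MMP2, ADAMTS4 and TIMP1 were lower, with differences of -1.31, -0.93 and -0.89 (limma adjusted p of 0.011, 0.0002, 0.00012 and 8.92e-05). Of the 8 lecticans and link proteins, 0 were called by limma. TGFB3 fell by 1.15 and TGFBR1 by 0.63, and EGR1 rose by 0.80 (limma adjusted p of 2.13e-06, 0.002 and 0.0004).

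Over the 8 group means, the genes whose pattern was most like that of TNC, of 15614 genes compared, included TMEM98, RPL13A, SLC25A6 and ZNF589 (Pearson r of 0.994 to 0.996). For EGFL6 they were CTSLP2, TOMM40L and GABPB2 (0.956 to 0.959), for ECM2 TXNDC15, LRGUK and NCAPD3 (0.985 to 0.989) and for THBS2 AATK, GRK2 and ANKRD44 (0.988 to 0.994). These are descriptions of 8 points that share arrays, days and slides.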

How the data were processed

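RNA of 24 samples was hybridised to 1-colour Agilent human arrays of 62976 spots. The deposited scanner files hold spot intensity as median signal and background (Feature Extraction 11.5.1.1 and 12.0.0.7, per the file headers), and the value table of the authors holds log2 values that they normalized and batch-corrected. From the intensity, background was subtracted and corrected by normexp (offset 0), followed by quantile normalization and ComBat for the repeated slide, written anew with the groups as covariates. Spots over 1.1 times the 95th percentile of 308 negative controls on at least 3 arrays were kept, outlier spots (6754 values) were set missing, spots were averaged per probe and 29386 named probes per gene, giving 21236 genes named through RefSeq accessions. A fit of all 24 arrays in limma 3.58.1 (R 4.3.3) was adjusted by Benjamini-Hochberg over all genes, and a gene was called at a fold over 1.5 with an adjusted p under 0.05. The fit was tested on simulated data.

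The members, gene lists and tests were chosen with earlier results of these data known. The genes named are the members, the called genes of the lists and, for the members with a call against DMSO, the genes with the most similar group means, of which 1 is not reported here. Replicate numbers name the slides, and the deviations of same-numbered arrays correlated in all 84 pairs (lowest r 0.172, median 0.462). The median of -0.355 for 168 other pairs follows in part from centring each group on its own mean. The numbers thus mark arrays that share a slide, and whether the samples were also paired in culture cannot be told from these values. The block ended 1 call, of TNC after 50 nM for 12 h. The precision is limited by 3 arrays in each group. Alternatives changed the background, offset, scaling, batch term, filter, probe, arrays in the fit and table, or left out arrays; probes on their own were added after the data were seen. Promoters came from RefSeq on GRCh38.p14 (9 of 10 members matched), and figures were drawn with matplotlib 3.10.9.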

Additional observations from a re-analysis of the deposited data

Results flagged for a closer look

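EGFL6 was higher than DMSO with 100 nM rotenone on day 8 (1.25 on the log2 scale) and lower on day 15 (-0.92), on every array of either day, a difference of -2.16 between the days that was not tested. THBS1 after 50 nM for 12 h stood 0.09 above DMSO on day 8 and -0.24 from it on day 15, a difference of -0.34 that was likewise not tested, with the day 15 mean resting on replicate 2. Its dim probe (A_33_P3415820), well above background on 9 arrays, differed from DMSO by 0.20 on day 8 and -0.41 on day 15. The bright probe (A_24_P142118), well above background on 24 arrays, differed by -0.01 and -0.08.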

How the results depend on the processing

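With slides 2 and 3 alone, the members called on day 8 were 2 with 100 nM, 0 with 50 nM for 24 h and 0 with 50 nM for 12 h. With 50 nM for 12 h the count was 1 without batch correction, in the fit with the replicate block and with the arrays compared alone. Leaving out 1 array gave 3 to 4 (100 nM, day 8), 2 to 3 (50 nM for 24 h), 1 to 1 (50 nM for 12 h), 0 to 1 (100 nM, day 15), 2 to 3 (DMSO between the days), 5 to 6 and 4 to 4 (50 nM for 24 h and 12 h between the days) and 0 to 0 elsewhere. Between the days after 50 nM for 24 h the count was 3 with the processed signal, an offset of 50 or 75th percentile scaling, and after 12 h it was 2 with the offset. The replicate block changed no other call. The cause of these shifts was not tested.

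Of the other values under an alternative, 1749 kept their direction and side of the threshold or moved within the spread, 39 lost and 8 gained a call, 128 untested values moved beyond the spread, and 61 changed sign. Of the 61, 5 were called as reported, all of TNXB after 50 nM by the probe used (up to 0.80 in size), and 0 were called under the alternative, where the largest was 0.42. For the day change in DMSO these were TNXB by its brightest probe (0.20), THBS1 on slides 2 and 3 (-0.0092) and without an array (-0.020 to 0.21), and FN1 by scaling (-0.045) and without an array (-0.042 to 0.27). After 50 nM for 24 h they were TNXB by its brightest probe (0.19), EGFL6 by the processed signal (0.031) and THBS1 by the filter on marks or its brightest probe (-0.025) and without an array (-0.013 to 0.16). After 50 nM for 12 h THBS1 was 0.052 by scaling, 0.024 by the filter or brightest probe and -0.46 to 0.079 without an array. For 24 h against 12 h, TNR was -0.23 to 0.042 and EGFL6 -0.24 to 0.028 without an array, TNXB -0.14 by its brightest probe, and ECM2 0.078 by the processed signal and -0.19 to 0.092 without an array. SPARCL1 was -0.054 with the offset, THBS2 0.14 with the offset, 0.078 by scaling, 0.23 by the filter or brightest probe and -0.080 to 0.044 without an array, and FN1 -0.34 by the processed signal and -0.017 to 0.40 without an array. For the difference of the day changes, TNXB was -0.098 by scaling and -0.034 to 0.19 without an array, EGFL6 -0.0076 to 0.30 without an array, and ECM2 -0.11 by the processed signal, -0.016 by scaling, -0.066 by the filter or brightest probe and -0.042 to 0.24 without an array. SPARC was 0.0042 on slides 2 and 3, SPARCL1 0.12 with the offset and -0.10 to 0.082 without an array, and THBS1 -0.049 by the filter or brightest probe. For single probes, chosen after seeing the data, the 3 other TNXB probes gave 0.046, 0.32 and 0.20 in DMSO, 0.29, 0.12 and 0.19 after 50 nM for 24 h, 0.42 (A_24_P307135) after 12 h and -0.038, -0.051 and -0.14 for 24 h against 12 h, where ECM2 by A_33_P3398386 was 0.071 and THBS2 by A_33_P3227375 0.23. THBS1 by A_24_P142118 was -0.025 and 0.024 after 24 h and 12 h. Signals near background limit ECM2, THBS2, SPARCL1, FN1 and the dim probe of THBS1.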
